A study of Mus musculus with 8 samples.

Results

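The genes described here encode the machinery of oxidative phosphorylation, both the part encoded in the nucleus and the part encoded in mitochondrial DNA. They were chosen by symbol alone, from the protein-coding entries of the deposited count table: names built on Nduf (complex I), Sdh (complex II), Uqcr (complex III), Cox (complex IV) and Atp5 (complex V, the ATP synthase), and every name with the prefix mt-. The rule took 93 of the 35275 genes in the table, 80 of them nuclear and 13 mitochondrial. By name, the nuclear genes comprised 36 of complex I, 4 of complex II, 8 of complex III, 15 of complex IV and 17 of complex V. No measured value entered the rule.

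Messenger RNA was sequenced from cells of one mouse epicardial line, the epicardium being the mesothelial cover of the heart. In 4 libraries Hdac3, which encodes a histone deacetylase, had been targeted by CRISPR/Cas9 with a guide RNA delivered by lentivirus (KO), and for the 4 others the lentivirus delivered an empty vector (EV). Both groups were grown in high-glucose DMEM with fetal bovine serum, and the labels do not say whether KO cells were a clone or a pool. One library, KO replicate 1, is KO by its title, while its characteristics name the empty vector. It was kept as KO, and results were also computed without it. Nothing in the labels says that replicates were separate cultures, so the p-values measure only the spread between these libraries.

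Library totals ranged from 18063745 to 24564892 counts, with 16431 to 16761 genes detected. The Hdac3 transcript ranged from 56.9 to 63.9 CPM (counts relative to TMM-scaled library size) in KO libraries, against 60.3 to 64.0 CPM in EV libraries, and its log2 fold change was 0.00 with an SE of 0.05 (edgeR adjusted p = 0.956). Gene-level counts do not show the edited sequence, so this value does not check the labels. Of 16 epicardial and mesothelial markers, 15 passed the filter on low counts, of which 4 rose and 5 fell in KO cells, with log2 fold changes from -1.17 to 1.66. The summed level of all 16 was 5845 to 6015 CPM in KO libraries, against 5998 to 6356 CPM in EV libraries, and Aldh1a2, an epicardial retinoic acid enzyme, stayed under 0.5 CPM throughout.

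The respiratory chain passes electrons from NADH (through complex I) and succinate (through complex II) to ubiquinone, then through complex III and cytochrome c to oxygen at complex IV. The proton gradient built on the way drives the ATP synthase. Most subunits are encoded in the nucleus, translated in the cytosol and imported. The mitochondrial genome encodes a few hydrophobic subunits of complexes I, III, IV and V, which are transcribed as long polycistronic RNAs inside the organelle. In the heart these genes are known for their very high expression in muscle cells, and some complex IV subunits have separate muscle forms.

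Most oxidative phosphorylation transcripts differed little between KO and EV cells. Of the 93 genes, 86 passed the filter on low counts, and 18 were higher and 1 was lower in KO cells in edgeR's quasi-likelihood test (Benjamini-Hochberg adjusted p under 0.05). Over all 12801 genes tested, 26.0% passed this threshold, 12.6% higher and 13.4% lower in KO cells. Among the 74 nuclear genes tested, 13 were higher (17.6%) and 1 was lower (1.35%), and 60 did not pass. Their log2 fold changes ran from -0.30 to 0.77 with a median of 0.08, where the median of all genes tested was 0.01. All 12 mt- genes tested had positive values (mt-Atp6 turned negative without KO replicate 4, at -0.01, and in a fit that removes effects of gene length, at -0.05), with a median of 0.28, and 5 of them passed. These are bulk libraries, in which fewer cells of a kind and less RNA per cell cannot be told apart.

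**Figure D1:**
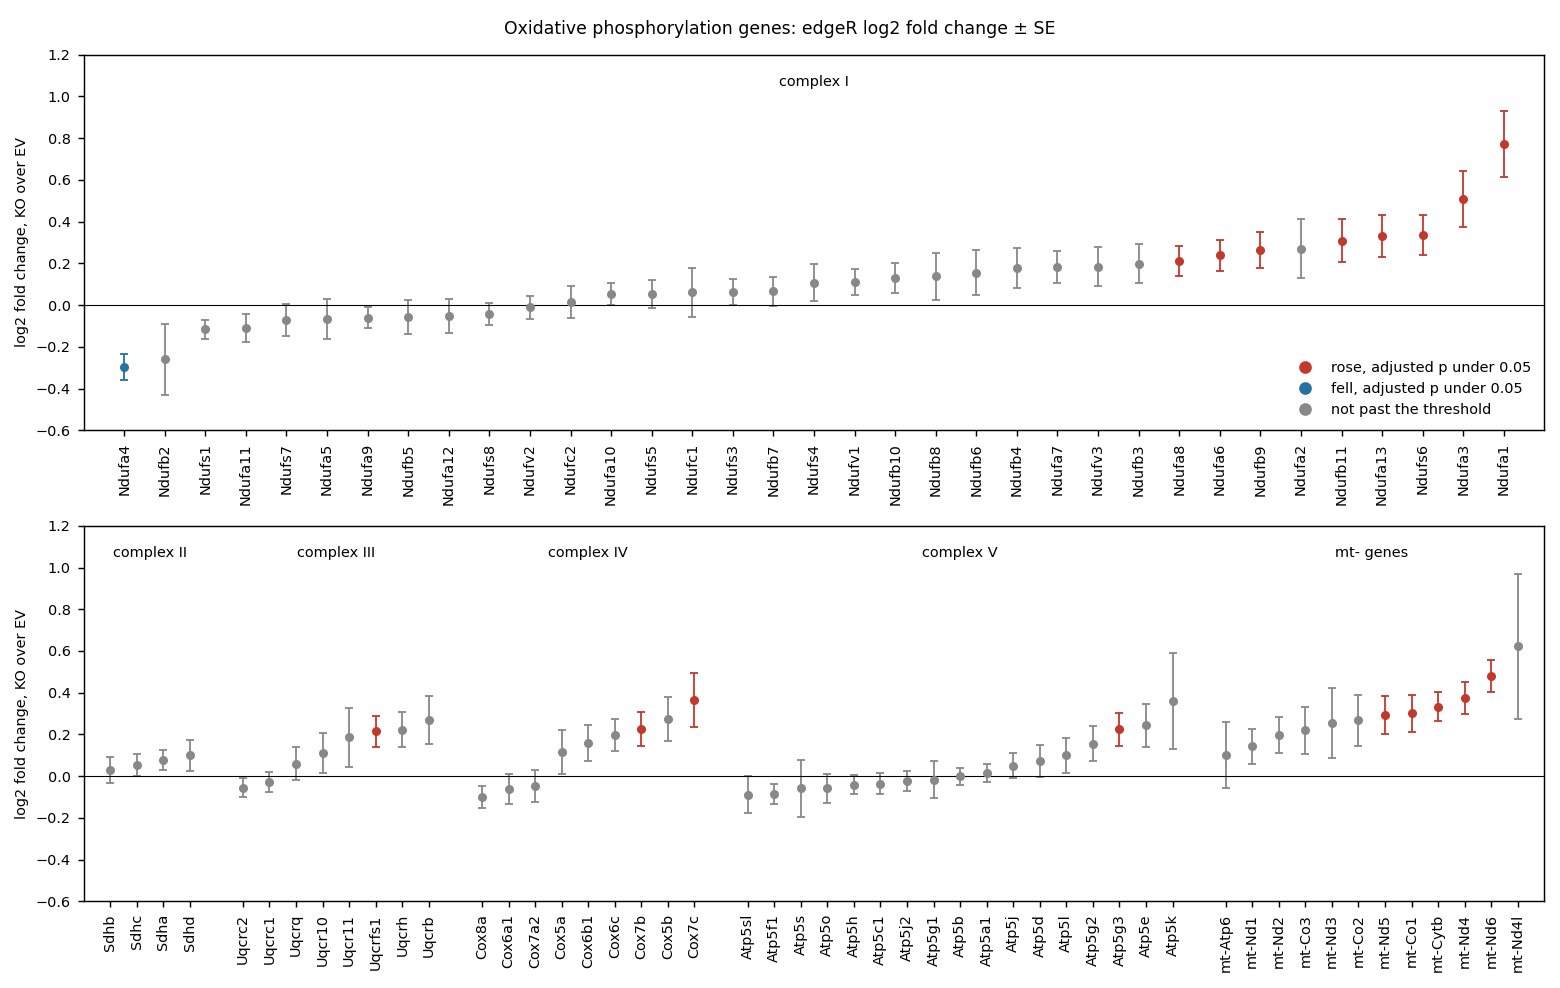
Log2 fold changes of tested oxidative phosphorylation genes, KO over EV, with its standard error from edgeR. Genes are ordered within each complex and red or blue points passed the threshold. Ndufa4 is the only one below 0 that passed, and all 12 mt- genes lie above 0, mt-Atp6 at 0.10 with a standard error of 0.16.

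The number of nuclear rises depended on single libraries and on scaling. It was 27 without EV replicate 1, 5 without EV replicate 3, 6 without EV replicate 4, 4 without KO replicate 1 and 6 without KO replicate 3, against 13 with all libraries. Of all genes, 12.2, 9.93, 11.9, 9.56 and 9.84% rose in those 5 fits. Without a filter on low counts 25 nuclear genes rose, where 8.33% of all genes did. On the log2(FPKM + 1) scale limma gave 1 nuclear rise and 2 falls, where 6.91% of all genes rose and 16.4% fell. It gave the same counts for nuclear genes on the log2(FPKM + 0.1) scale, where 6.43% rose and 15.7% fell, and no rise with 2 falls without a filter, where 4.06% rose and 9.66% fell. With library totals alone in place of TMM, 8.12% of all genes rose and 18.9% fell, and 5 nuclear genes rose and 4 fell. Values of KO and EV libraries did not overlap for 4 nuclear genes that were higher in every KO library and 2 that were lower in every KO library. Over all genes tested, those shares were 12.6% and 13.9%.

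Complex I, the entry point for NADH, held most of the nuclear calls. Of its 36 nuclear genes 9 rose, 1 fell and 26 did not pass, with a median log2 fold change of 0.11. With offsets that remove library deviations by gene length (described with the gene lengths) 5 rose and 2 fell, with a median of 0.04, and with library totals alone 5 rose and 2 fell, with a median of 0.06. The 29 genes outside the conserved core, nearly all accessory subunits that build the frame of the complex, had 8 rises (27.6%), 1 fall and a median of 0.14. With length offsets they had 4 rises (13.8%), 1 fall and a median of 0.06. With library totals alone they had 4 rises, 1 fall and a median of 0.09. Of all genes, 14.2% rose with length offsets, near the share of these 29, and 8.12% with library totals alone.

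Ndufa4 was the single nuclear member that fell. Named for complex I, its product is now assigned to cytochrome c oxidase, complex IV. Its gene (ENSMUSG00000029632) lies on the minus strand at chr6:11900373-11907446 in the deposited table, whose build is mm10 per the submitters' processing notes. Ndufa4 had 161, 139, 159 and 144 CPM in KO replicates 1 to 4, against 204, 190, 184 and 163 CPM in EV replicates 1 to 4. Every KO library lay below every EV library, though KO replicate 1 and EV replicate 4 nearly met. The means were 151 ± 10.8 CPM in KO cells and 185 ± 17.0 CPM in EV cells (SD, n = 4 each), and edgeR's quasi-likelihood test gave a log2 fold change of -0.30 ± 0.06 (SE, adjusted p = 0.00138). It kept its call in all 22 alternative fits, with log2 fold changes from -0.44 to -0.26. Per length it was also the most abundant nuclear complex I gene by name, at 301 ± 21.2 FPKM in KO cells and 383 ± 34.1 FPKM in EV cells (the authors' unit, fragments scaled by gene length and library total).

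The gene that starts on the other strand upstream of Ndufa4 is Phf14, which encodes a PHD finger protein. Phf14 fell as well, with 57.9 ± 2.12 CPM in KO cells and 78.2 ± 7.12 CPM in EV cells (SD, n = 4 each; log2 fold change -0.43 ± 0.06, edgeR adjusted p = 2.6e-05). The stretch between the 2 genes is short and includes the bases just upstream of Ndufa4, shown here because both neighbours fell. This is the RefSeq sequence of GRCm38.p6, minus strand, chr6:11907451-11907700, written 5′ to 3′ towards Ndufa4.
Ndufa4 promoter: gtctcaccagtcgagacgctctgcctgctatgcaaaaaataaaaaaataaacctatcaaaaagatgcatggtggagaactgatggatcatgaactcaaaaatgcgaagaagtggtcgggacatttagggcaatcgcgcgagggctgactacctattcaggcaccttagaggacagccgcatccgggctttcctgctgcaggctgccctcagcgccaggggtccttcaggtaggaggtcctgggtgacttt
None of the NRF1, ERR, ETS and YY1 motifs given with the promoters occurs in that window.

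Ndufa1, an X-linked accessory subunit needed for assembly of complex I, had the largest nuclear fold change. Ndufa1 had 28.6, 20.3, 22.3 and 18.2 CPM in KO replicates 1 to 4, against 16.8, 14.9, 12.5 and 8.21 CPM in EV replicates 1 to 4. All KO libraries lay above all EV libraries, and EV replicate 4 was the lowest. The means were 22.3 ± 4.47 CPM in KO cells and 13.1 ± 3.71 CPM in EV cells (SD, n = 4 each), 1.71-fold higher in KO cells (log2 fold change 0.77 ± 0.16, edgeR adjusted p = 0.00131).

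Ndufa3, an accessory subunit of the membrane arm, had 22.1, 17.7, 19.4 and 17.9 CPM in KO libraries, against 16.4, 15.4, 13.6 and 8.87 CPM in EV libraries. Here too EV replicate 4 was lowest and the groups did not overlap. Means were 19.3 ± 2.04 CPM in KO cells and 13.6 ± 3.33 CPM in EV cells (SD, n = 4 each; log2 fold change 0.51 ± 0.13, edgeR adjusted p = 0.00837). The calls of Ndufa1 and Ndufa3 held without any single library, while Ndufa3 did not pass in any of the limma fits on FPKM and Ndufa1 did not pass in the unfiltered one.

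**Figure D2:**
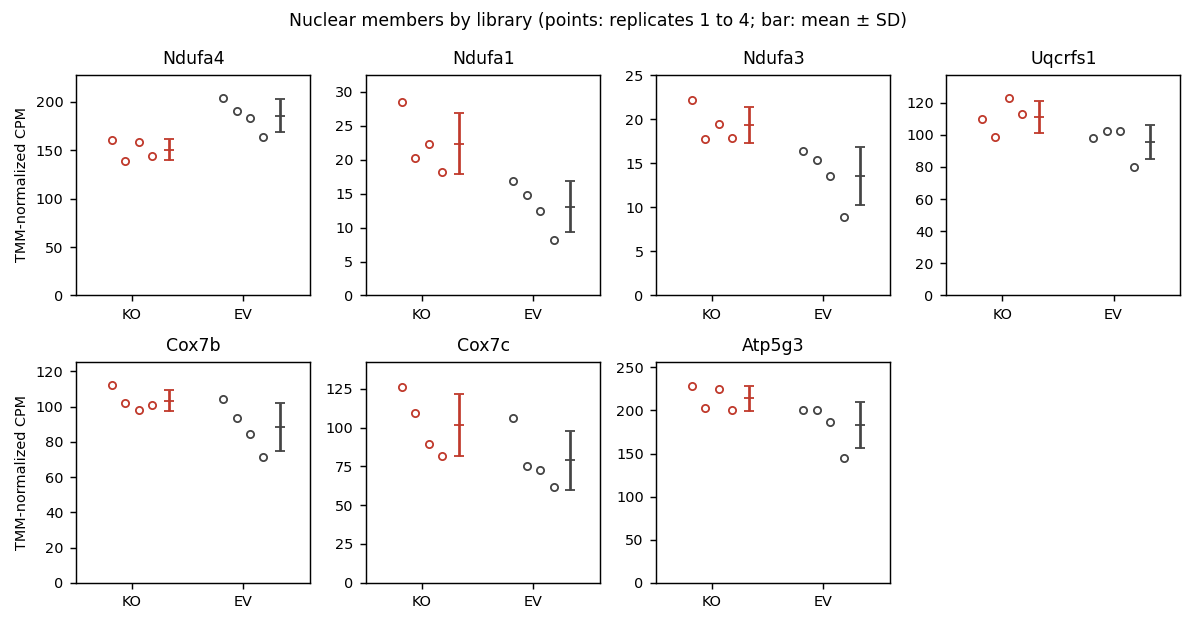
TMM-normalized CPM of 7 nuclear genes in each library (points, replicates 1 to 4 from left to right) with mean ± SD, KO left of EV. Ndufa4, Ndufa1 and Ndufa3 show no overlap between groups, while Uqcrfs1, Cox7b, Cox7c and Atp5g3 do.

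A further 6 accessory subunits of complex I rose with smaller differences, and KO and EV libraries overlapped for each. Ndufa13 and Ndufs6 had log2 fold changes of 0.33 and 0.34 (edgeR adjusted p = 0.0225 and 0.0159), Ndufb11 and Ndufb9 of 0.31 and 0.26 (adjusted p = 0.0341 and 0.028), and Ndufa6 and Ndufa8 of 0.24 and 0.21 (adjusted p = 0.0213 and 0.0352). Each lost its call in all limma fits on FPKM and without at least 1 library. Ndufs6 missed the threshold without EV replicate 3 (edgeR adjusted p = 0.0665). Ndufa13 did so on leaving out any one of EV 3, KO 1 and KO 3 (group and replicate number; adjusted p up to 0.0876), and Ndufb11 on leaving out any of these or EV 4 (up to 0.106). Ndufa6 missed it when EV 2, EV 3, KO 1 or KO 3 was left out (adjusted p up to 0.0886). Ndufb9 missed it when EV 2, EV 3, EV 4, KO 1 or KO 2 was left out (up to 0.0904), and Ndufa8 when EV 1, EV 4, KO 1, KO 2 or KO 3 was (up to 0.121). Ndufa13 overlaps Tssk6 on the opposite strand and Yjefn3 on its own strand, and Ndufb11 overlaps Rbm10 on the opposite strand. No source used here gives the strand setting of the counting, so reads of these pairs cannot be told apart. Of the 100-base windows of their transcripts, 24.0% for Ndufa13 and 17.0% for Ndufb9 also occur in transcripts of other genes.

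The 26 complex I genes that did not pass had log2 fold changes from -0.26 to 0.27. Among them, Ndufs1, which carries several of the iron-sulfur clusters, was lower in every KO library without passing. It had 77.9 ± 2.31 CPM in KO cells and 84.5 ± 1.38 CPM in EV cells (SD, n = 4 each). The log2 fold change was -0.12 ± 0.05 (edgeR adjusted p = 0.0721). Ndufs1 overlaps Eef1b2 and Ino80dos on the opposite strand, and with the strand setting unknown their reads cannot be told apart.

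Complex II, succinate dehydrogenase, is encoded by nuclear genes alone, and none of its 4 genes passed in edgeR's test, at an unadjusted p under 0.05 or in DESeq2. Their log2 fold changes ran from 0.03 to 0.10 with a median of 0.07. Sdha, the flavoprotein that oxidizes succinate, had 200, 214, 210 and 196 CPM in KO libraries, against 203, 200, 191 and 183 CPM in EV libraries (log2 fold change 0.08 ± 0.05, edgeR adjusted p = 0.242). The groups overlapped. Per length, the membrane anchor Sdhd was the most abundant, at 102 ± 4.09 FPKM in KO cells and 99.1 ± 13.9 FPKM in EV cells (SD, n = 4 each).

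In complex III, the cytochrome bc1 complex, 1 of 8 genes rose (12.5%), near the 12.6% of all genes that rose. None fell, and the median log2 fold change was 0.15. With gene length offsets 1 gene rose and the median was 0.04, and with library totals alone none rose and it was 0.10. Uqcrfs1, the Rieske iron-sulfur protein, had 110, 98.5, 123 and 113 CPM in KO libraries, against 97.8, 103, 102 and 80.0 CPM in EV libraries. KO replicate 2 fell within the EV range. The log2 fold change of Uqcrfs1 was 0.22 ± 0.07 (edgeR adjusted p = 0.0369). The call was lost when EV 4, KO 1, KO 3 or KO 4 was left out (edgeR adjusted p up to 0.141). It was also lost with library totals alone and in all limma fits on FPKM. The 7 other genes of the complex ran from -0.05 to 0.27. Uqcrh, the hinge protein of the complex, was higher in every KO library without passing (edgeR adjusted p = 0.0604). It had 88.6 ± 5.53 CPM in KO cells and 75.8 ± 12.1 CPM in EV cells (SD, n = 4 each). Uqcrh overlaps Gm12854 on the opposite strand, and reads of this pair cannot be told apart either. Uqcr10, a small subunit and the most abundant gene of the complex per length, had 117 ± 10.6 FPKM in KO cells and 112 ± 19.8 FPKM in EV cells (log2 fold change on counts 0.11 ± 0.09, edgeR adjusted p = 0.427).

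Complex IV, cytochrome c oxidase, had 9 of its 15 nuclear genes above the filter. Of these 2 rose (22.2%) and none fell, where 12.6% of all genes rose and 13.4% fell, and the median log2 fold change was 0.16. With gene length offsets these counts were 1 rise and 3 falls with a median of 0.02, and with library totals alone no rise and 1 fall. The ubiquitous isoforms were the ones expressed. Cox8a, the most abundant, had 276, 257, 258 and 236 CPM in KO libraries, against 291, 279, 273 and 257 CPM in EV libraries, and the groups overlapped (log2 fold change -0.10 ± 0.05, edgeR adjusted p = 0.173). Per length it reached 462 ± 30.2 FPKM in KO cells and 513 ± 25.3 FPKM in EV cells (SD, n = 4 each). Cox6a1 followed with 276 ± 30.9 FPKM in KO cells and 298 ± 27.8 FPKM in EV cells, Cox6b1 with 203 ± 17.9 FPKM in KO cells and 188 ± 29 FPKM in EV cells, and Cox7a2 stood at 78.8 ± 9.06 FPKM in KO cells and 84.3 ± 8.03 FPKM in EV cells. None of these isoforms passed, with log2 fold changes on counts of -0.06, 0.16 and -0.05 and edgeR adjusted p of 0.579, 0.188 and 0.701.

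The 6 complex IV genes under the filter were isoforms known from muscle or testis. Cox6a2, a heart and skeletal muscle isoform, had 0.478, 0.245, 0.388 and 0.291 CPM in KO libraries, against 1.21, 0.218, 0.37 and 0.237 CPM in EV libraries, and EV replicate 1 stood above the rest. Cox7a1, another muscle isoform, ranged from 0.208 to 0.637 CPM in KO libraries, against 0 to 0.509 CPM in EV libraries. Cox8b, Cox6b2 and Cox7b2 each had counts in at most 2 of the 8 libraries and none above 0.159 CPM, and Cox8c had no count in any. A count of 0 allows a level of up to 0.125 to 0.164 CPM (3 counts per library, counting error only), so their absence is not shown at this depth.

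Both complex IV genes that rose encode small structural subunits. Cox7b, which is X-linked, had 112, 102, 98.2 and 101 CPM in KO libraries, against 104, 93.4, 84.4 and 71.5 CPM in EV libraries. Cox7c had 126, 109, 89.7 and 81.8 CPM in KO libraries, against 106, 75.5, 72.9 and 61.5 CPM in EV libraries. The groups overlapped for both, as EV replicate 1 lay above 3 KO libraries for Cox7b and above 2 for Cox7c. Cox7b had a log2 fold change of 0.23 ± 0.08 (edgeR adjusted p = 0.0444) and lost its call without any library other than EV replicate 1 (adjusted p up to 0.139). Cox7c had 0.36 ± 0.13 (adjusted p = 0.0474) and lost its call when EV 2, EV 3, EV 4, KO 1 or KO 2 was left out (up to 0.189). Each of these genes lost its call in 14 of 22 alternative fits. Among these fits were gene length offsets, library totals alone, upper-quartile factors and limma on FPKM, and for Cox7c also DESeq2. For Cox7c, 19.7% of the transcript's 100-base windows also occur in another gene's transcript.

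Complex V, the ATP synthase, had 1 of 17 genes higher (5.88%), none lower and a median log2 fold change of -0.001. Of all genes, 12.6% were higher and 13.4% lower. The 5 genes of the catalytic F1 head had no call in edgeR or DESeq2, and 1 had an unadjusted p under 0.05. Atp5b, the catalytic beta subunit, had 1122, 1105, 1140 and 1125 CPM in KO libraries, against 1169, 1113, 1134 and 1078 CPM in EV libraries. The KO libraries lay inside the EV range, with a log2 fold change of -0.001 ± 0.04 (edgeR adjusted p = 0.988). At 575 ± 5.69 FPKM in KO cells and 596 ± 17.3 FPKM in EV cells (SD, n = 4 each), Atp5b was the most abundant nuclear gene of all 80 per length.

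A trio of genes, Atp5g1, Atp5g2 and Atp5g3, encodes the same mature c subunit of the rotor ring with different import sequences. Of these Atp5g3 rose, with 229, 203, 225 and 201 CPM in KO libraries, against 201, 201, 187 and 145 CPM in EV libraries. EV replicate 4 was far below the other EV libraries, and the upper EV values met the lower KO values. Its log2 fold change was 0.23 ± 0.08 (edgeR adjusted p = 0.0409). The call was lost when EV 3, EV 4, KO 1 or KO 3 was left out (edgeR adjusted p up to 0.122). It was also lost with library totals alone and in all limma fits on FPKM. Atp5g2 had 0.15 ± 0.08 (adjusted p = 0.193) and Atp5g1 -0.02 ± 0.09 (adjusted p = 0.908). Per length Atp5g3 had 244 ± 16.5 FPKM in KO cells and 216 ± 31.3 FPKM in EV cells. Atp5g2 had 184 ± 11.8 FPKM in KO cells and 171 ± 27.2 FPKM in EV cells. Atp5g1 had 18.8 ± 1.01 FPKM in KO cells and 19.8 ± 3.35 FPKM in EV cells. FPKM divides by gene length, and the longest GENCODE M21 transcripts have 4715 bases for Atp5g1, 753 for Atp5g2 and 862 for Atp5g3. Levels of the trio so depend on the length used, and which transcripts were expressed was not tested. Atp5s and Atp5sl, which match the name pattern but are not regular subunits of the synthase, were low, at 2.81 and 5.58 FPKM in KO cells and 3.03 and 6.15 FPKM in EV cells, with no call.

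Nuclear oxidative phosphorylation genes are short, and short genes as a class had positive median log2 fold changes, KO over EV. The median gene length of the tested nuclear members was 977 bases, against 3121 bases for all genes tested. Under 800 bases, the 25 members had a median log2 fold change of 0.18 and all 554 genes had 0.16. From 800 to under 1500 bases, the medians were 0.06 for 25 members and 0.07 for 1391 genes. At 1500 bases or more they were 0.03 for 24 members and -0.01 for 10856 genes. Members under 800 bases had 6 rises and 1 fall among 25, where 16.2% of all genes of that length rose and 2.35% fell. From 800 to under 1500 bases 6 of 25 members rose and none fell, against 14.4% and 7.12% of all genes. At 1500 bases or more 1 of 24 members rose and none fell, against 12.2% and 14.7% of all genes. KO and EV libraries overlapped, as EV replicate 1 stood at a median log2 deviation of 0.11 over all genes under 800 bases, against 0.09 in KO replicate 2 and 0.10 in KO replicate 4. For the members of that length EV replicate 1 stood at 0.23, above 3 KO libraries. EV replicate 4 moved with this: its members under 800 bases had a median log2 deviation of -0.27 from their EV means, and all genes of that length -0.13. A fit with offsets that remove each library's deviation by gene length was added after this was seen. It gave 8 rises, 6 falls and a median of 0.02 for nuclear members, where 14.2% of all genes rose and 14.6% fell. The offsets also take out any difference between KO and EV that genes of like length share. This fit therefore cannot show where such a difference comes from, and its source was not tested.

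**Figure D3:**
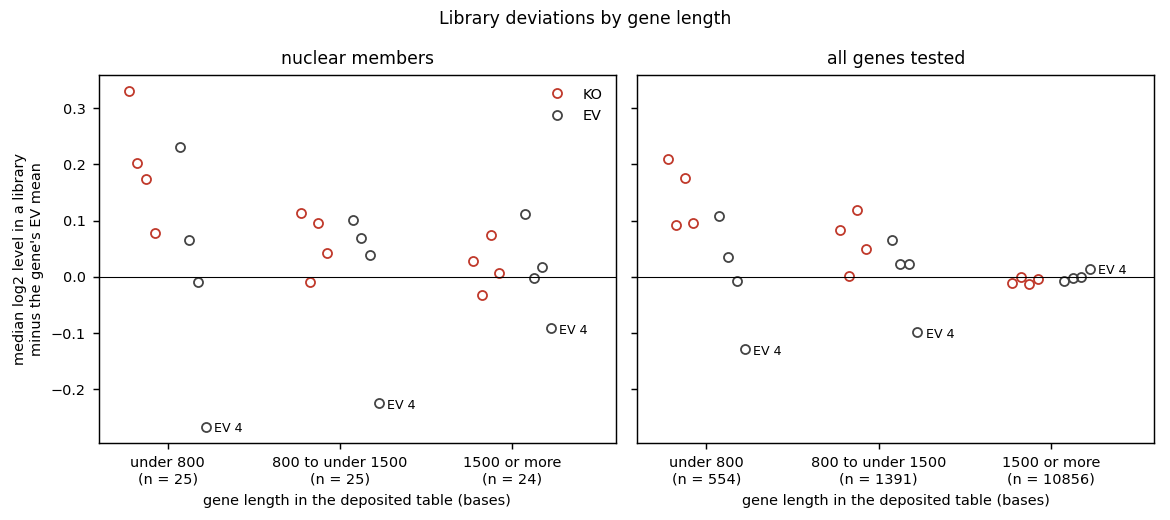
Median log2 level in each library relative to the gene's EV mean, for nuclear members (left) and all genes tested (right), by gene length in the deposited table. In both panels the libraries spread most for genes under 800 bases, with EV replicate 4 lowest, and nuclear members of every length class have EV replicate 4 below 0.

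The 13 mitochondrial protein genes differ in how well short reads can be assigned to them, because the mouse nuclear genome holds a long copy of part of the mitochondrial genome on chromosome 1. In GENCODE M21 (GRCm38), transcripts annotated on the minus strand between positions 24611535 and 24616197 of chromosome 1 match mt-Co2, mt-Atp6, mt-Co3, mt-Nd3 and mt-Nd4l without a mismatch over the aligned bases (681, 678, 783, 342 and 294), and mt-Nd4 over 876 bases. Only for mt-Co1 did the aligned stretch hold a difference, 482 of 483 bases being identical. The first 90 bases of mt-Co2, at chrMT:7013-7102 on the plus strand and at chr1:24615476-24615565 on the minus strand, are one and the same sequence.
mt-Co2: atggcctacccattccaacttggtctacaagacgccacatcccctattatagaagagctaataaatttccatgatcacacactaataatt
A read from these bases cannot show its origin. The one difference in mt-Co1 is A1066T, counted from 1 at the start of mt-Co1 with the mitochondrial base first. It is shown in capitals in the mitochondrial sequence at chrMT:6390-6449 (plus strand) and in the copy at chr1:24616129-24616188 (minus strand).
mt-Co1: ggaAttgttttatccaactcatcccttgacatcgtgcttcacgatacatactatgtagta
chromosome 1 copy of mt-Co1: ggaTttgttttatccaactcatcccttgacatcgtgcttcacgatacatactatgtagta

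Levels of the mt- genes followed this division, although most of these genes lie on one polycistronic RNA. For mt-Co2, mt-Atp6, mt-Co3, mt-Nd3 and mt-Nd4l, 97.6 to 99.9% of the 100-base windows also occur in transcripts of nuclear genes, and their FPKM means ran from 2.28 to 28.5 in KO cells and from 1.52 to 25.4 in EV cells. The others reached 301 to 1783 FPKM in KO cells and 240 to 1500 FPKM in EV cells, apart from mt-Atp8, which had 1 count in KO replicate 2 and none elsewhere. No window of mt-Atp8 occurs in another annotated transcript, but sequence outside annotated transcripts was not searched. The protein genes on either side of mt-Atp8 are mt-Co2 and mt-Atp6. Their chromosome 1 copies lie at 24614885-24615565 and 24613974-24614651, and the bases between these copies were not compared with mt-Atp8. Of the windows, 60.8% were shared for mt-Nd4, 30.8% for mt-Co1 and 3.19% for mt-Nd2, and none for mt-Cytb, mt-Nd1, mt-Nd5 and mt-Nd6. The part that read assignment has in these levels was not tested, since no source used here says how reads with several matches were counted. The rows of the 7 chromosome 1 copies together held 1460, 1350, 1971 and 2072 counts in KO libraries, against 1070, 1229, 1744 and 1315 counts in EV libraries.

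**Figure D4:**
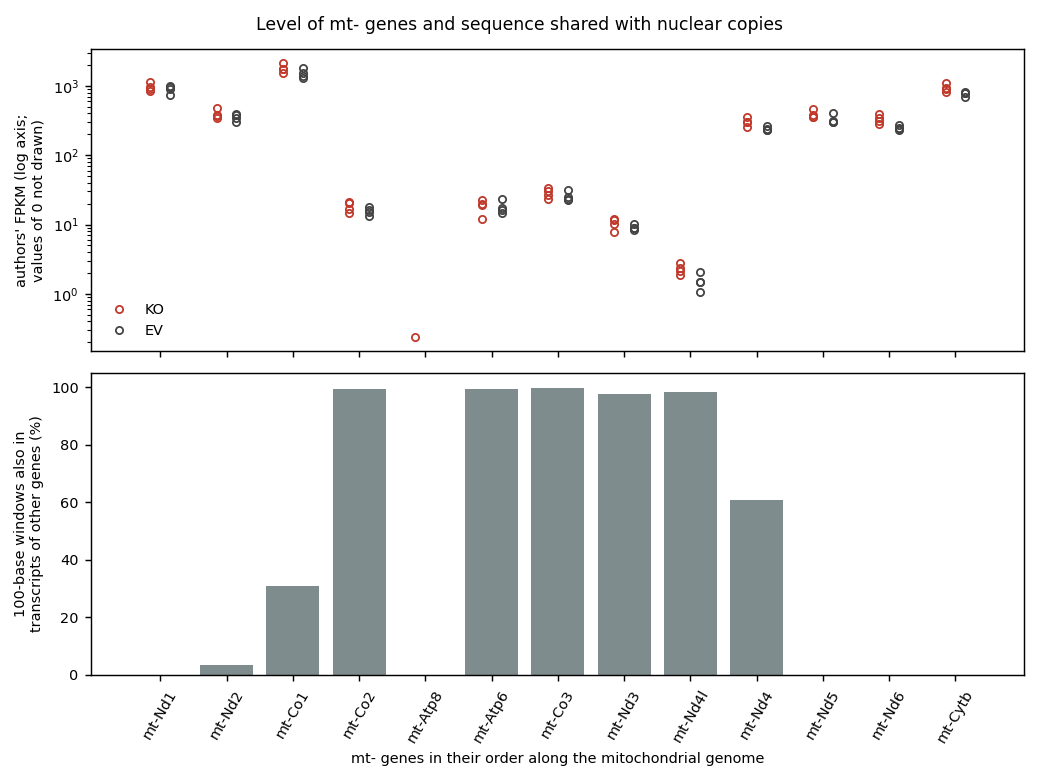
Authors' FPKM of the 13 mt- genes in each library (upper panel, log axis, KO left of EV) and percent of each transcript's 100-base windows that also occur in other genes' transcripts (lower panel), in their order along the mitochondrial genome. The 5 genes whose windows are nearly all shared average 1.52 to 28.5 FPKM, and mt-Atp8 has 1 point because it was at 0 in the other libraries.

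Among the mt- genes with few or no shared windows, mt-Nd6 differed most. It encodes a membrane-arm subunit of complex I and is the only protein gene read from the light strand. mt-Nd6 had 182, 148, 163 and 207 CPM in KO libraries, against 127, 121, 117 and 137 CPM in EV libraries. All KO libraries lay above all EV libraries. The means were 175 ± 25.4 CPM in KO cells and 125 ± 8.66 CPM in EV cells (SD, n = 4 each), 1.40-fold higher in KO cells (log2 fold change 0.48 ± 0.08, edgeR adjusted p = 0.000108). It passed in all 22 alternative fits, with log2 fold changes from 0.33 to 0.64. The 3′ end of mt-Nd6 overlaps that of mt-Nd5 on the opposite strand. As the strand setting of the counting is not known, reads of mt-Nd6 and of RNA from the other strand cannot be told apart. Which strand the difference belongs to was not tested.

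mt-Cytb, the cytochrome b of complex III, had 1096, 958, 1049 and 1273 CPM in KO libraries, against 878, 781, 906 and 911 CPM in EV libraries. Its groups did not overlap either. Means were 1094 ± 132 CPM in KO cells and 869 ± 60.3 CPM in EV cells (SD, n = 4 each; log2 fold change 0.33 ± 0.07, edgeR adjusted p = 0.00125). The call held without any single library, but not with limma on log2(FPKM + 0.1) or on unfiltered FPKM.

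mt-Nd5, a proton-pumping subunit of complex I, had 709, 660, 656 and 867 CPM in KO libraries, against 541, 528, 568 and 723 CPM in EV libraries. Replicate 4 was highest in both groups, and EV replicate 4 lay above 3 KO libraries. Its log2 fold change was 0.29 ± 0.09 (edgeR adjusted p = 0.0209). The call was lost when EV 1, EV 2, EV 3 or KO 4 was left out (edgeR adjusted p up to 0.103). It was also lost in DESeq2, with library totals alone and in all limma fits on FPKM. mt-Nd1 had 951, 820, 885 and 1093 CPM in KO libraries, against 844, 697, 955 and 897 CPM in EV libraries (log2 fold change 0.14 ± 0.08, adjusted p = 0.223). mt-Nd2 had 405, 362, 384 and 499 CPM in KO libraries, against 350, 303, 388 and 399 CPM in EV libraries (log2 fold change 0.20 ± 0.09, adjusted p = 0.101). Both are core complex I subunits, both overlapped between groups and neither passed.

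**Figure D5:**
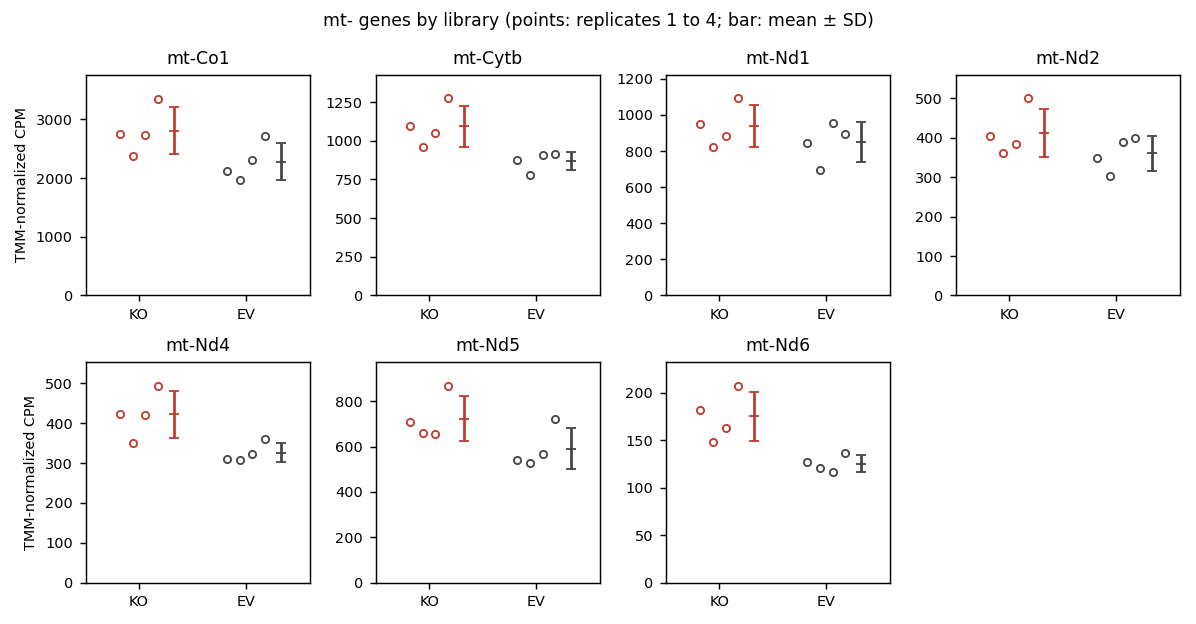
TMM-normalized CPM of the 7 abundant mt- genes in each library (points, replicates 1 to 4 from left to right) with mean ± SD, KO left of EV. KO replicate 4 is the highest library in every panel, and mt-Cytb and mt-Nd6 show no overlap between groups.

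Both genes with an intermediate share of shared windows rose. mt-Co1, the catalytic subunit of complex IV and the most abundant mt- gene, had 2750, 2384, 2739 and 3352 CPM in KO libraries, against 2127, 1973, 2304 and 2711 CPM in EV libraries. EV replicate 4 lay above KO replicate 2, and the means were 2806 ± 402 CPM in KO cells and 2279 ± 318 CPM in EV cells (SD, n = 4 each; log2 fold change 0.30 ± 0.09, edgeR adjusted p = 0.0169). The mt-Co1 call was lost without EV replicate 2 or KO replicate 4 (adjusted p up to 0.0852). It was also lost in DESeq2 and in all limma fits on FPKM. mt-Nd4, another complex I pump subunit, had 423, 351, 420 and 494 CPM in KO libraries, against 311, 308, 323 and 360 CPM in EV libraries. KO replicate 2 stood below EV replicate 4. Its log2 fold change was 0.37 ± 0.07 (adjusted p = 0.000971). This call held without any single library, but not with limma on log2(FPKM + 0.1) or on unfiltered FPKM.

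None of the 5 mt- genes that nearly coincide with the chromosome 1 copies passed in edgeR's test or DESeq2, and 1 had an unadjusted p under 0.05. Their log2 fold changes were 0.27 for mt-Co2, 0.22 for mt-Co3, 0.10 for mt-Atp6, 0.26 for mt-Nd3 and 0.62 for mt-Nd4l, with edgeR adjusted p of 0.119, 0.163, 0.681, 0.289 and 0.206. The lowest of them, mt-Nd4l, had 0.688 ± 0.12 CPM in KO cells and 0.443 ± 0.12 CPM in EV cells (SD, n = 4 each).

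As a share of all counts, the mt- genes made up 0.645, 0.565, 0.622 and 0.768% of KO libraries, against 0.528, 0.488, 0.568 and 0.631% of EV libraries. The nuclear members made up 0.800, 0.745, 0.784 and 0.739% of KO libraries, against 0.821, 0.782, 0.771 and 0.691% of EV libraries. Mean shares of the nuclear members were 0.767 ± 0.03% in KO cells and 0.766 ± 0.055% in EV cells, and those of the mt- genes 0.650 ± 0.086% in KO cells and 0.553 ± 0.061% in EV cells (SD, n = 4 each). The ratio of mt- to nuclear counts was 0.807, 0.758, 0.793 and 1.04 in KO libraries, against 0.643, 0.624, 0.736 and 0.913 in EV libraries. Replicate 4 had the highest ratio in both groups, so the groups overlapped. With TMM and totals computed without the mt- genes, the counts of calls were the same, 13 and 1 for nuclear members and 5 for mt- genes. DESeq2 called 3 mt- genes in place of 5, with 11.0% of all genes higher in KO cells. Without EV replicate 2 or KO replicate 4, 3 mt- genes passed, with 10.5 and 10.4% of all genes higher.

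Promoters were compared because nuclear members are known to share binding motifs for NRF1, ERR, ETS and YY1 factors. RefSeq promoters of GRCm38.p6 (250 bases before to 50 after the gene start) were found for 68 of the 80 nuclear members. The NRF1 motif, GCGCA and GCGC with any base between them, occurred on either strand in 17 of them (25%), against 7.17% of 17492 protein-coding genes. It occurred in 4 of the 11 members with a promoter that rose and in 13 of the 52 tested members that did not pass. The YY1 motif, AAGATGG run on into CGGC, occurred in 5 members (7.35%, against 1.06% of all), the ERR motif TCAAGGTCA in 2 (2.94%, against 0.377%) and the ETS motif ACCGGAAGT in 1 (1.47%, against 1.59%). The NRF1 and ERR matches in members that rose are shown in capitals with their flanks, and Ndufs6 also held a YY1 match, which is not printed. These genes lie on the minus strand, and the sequences follow the gene's strand, on which each match printed reads as the reverse complement of the letters given above: Ndufa6 at chr15:82354249-82354278, Ndufa8 at chr2:36049349-36049378, Ndufs6 at chr13:73328479-73328508, and Atp5g3 at chr2:73911295-73911324 and, for the ERR motif, at chr2:73911359-73911388.
Ndufa6 NRF1 match: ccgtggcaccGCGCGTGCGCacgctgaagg
Ndufa8 NRF1 match: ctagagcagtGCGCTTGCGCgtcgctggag
Ndufs6 NRF1 match: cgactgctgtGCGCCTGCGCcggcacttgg
Atp5g3 NRF1 match: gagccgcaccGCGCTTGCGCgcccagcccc
Atp5g3 ERR match: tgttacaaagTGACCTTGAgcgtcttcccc
A match describes letters and not binding.

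Subunits outside the name patterns gave a like picture. Of 8 tested, 2 rose and none fell, with a median log2 fold change of 0.06. Cox7a2l, a factor of respiratory supercomplexes, had 175 ± 8.82 CPM in KO cells and 149 ± 7.66 CPM in EV cells (SD, n = 4 each) with no overlap (log2 fold change 0.23 ± 0.05, edgeR adjusted p = 0.00178). Cox4i1, the ubiquitous form of the largest nuclear complex IV subunit, had 233 ± 19.5 CPM in KO cells and 202 ± 20.1 CPM in EV cells (log2 fold change 0.21 ± 0.07, adjusted p = 0.0257). Its call was lost when EV 2, EV 3, KO 1 or KO 3 was left out (adjusted p up to 0.114). The same held with gene length offsets, with library totals alone and in the limma fits on FPKM.

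Assembly factors had rises and no falls, where 12.6% of all genes rose and 13.4% fell. Complex IV assembly had 4 rises among 18 tested genes (22.2%) and a median log2 fold change of 0.15. Cox14, which supports synthesis and assembly of the mt-Co1 protein, had 48.0, 43.7, 47.1 and 42.9 CPM in KO libraries, against 34.3, 39.2, 36.0 and 29.7 CPM in EV libraries. The groups did not overlap (log2 fold change 0.38 ± 0.07, edgeR adjusted p = 0.000749), and the call held in all 22 alternative fits. Pet100 had a log2 fold change of 0.69 ± 0.21 (adjusted p = 0.0222) at 4.61 ± 0.67 CPM in KO cells and 2.86 ± 1.11 CPM in EV cells, and lost its call when EV 3, EV 4 or KO 1 was left out (adjusted p up to 0.0815). Complex I assembly had 2 rises among 14 genes (14.3%) and complex II and III assembly 1 among 6 (16.7%), both near the share of all genes, while complex V assembly had none among 4 by edgeR, DESeq2 or an unadjusted p under 0.05. Ndufaf2, a complex I assembly factor, had 6.80 ± 0.29 CPM in KO cells and 4.83 ± 0.95 CPM in EV cells (SD, n = 4 each; log2 fold change 0.50 ± 0.14, adjusted p = 0.0131). Timmdc1 of the same list had 0.23 ± 0.08 (adjusted p = 0.0468) and lost its call without any library other than KO replicate 3 (adjusted p up to 0.161), while Uqcc2 of complex III assembly had 0.41 ± 0.13 (adjusted p = 0.0267) and lost its call when EV 2, KO 1, KO 2 or KO 3 was left out (up to 0.0727).

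None of the 15 tested genes of mitochondrial DNA maintenance and transcription passed in edgeR's test or DESeq2, and at an unadjusted p under 0.05 edgeR had 2 higher and 2 lower. Their median log2 fold change was 0.05. Of 20 genes of mitochondrial RNA processing and stability, Lrpprc alone rose (5.0%, where 12.6% of all genes rose). Lrpprc, which stabilizes mitochondrial messenger RNAs, had 111, 118, 117 and 119 CPM in KO libraries, against 94.5, 100.0, 99.7 and 106 CPM in EV libraries. Its groups did not overlap (log2 fold change 0.22 ± 0.05, edgeR adjusted p = 0.00238).

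Regulators of mitochondrial biogenesis had no rise and 5 falls among 13 tested genes (38.5%, where 13.4% of all genes fell), with a median log2 fold change of -0.13. Ppargc1a, the coactivator PGC-1α, had 8.81, 10.2, 8.97 and 8.52 CPM in KO libraries, against 10.1, 12.9, 13.4 and 13.3 CPM in EV libraries. EV replicate 1 alone met the KO range (log2 fold change -0.45 ± 0.11, edgeR adjusted p = 0.00449). Pprc1, a related coactivator, had 67.2 ± 5.42 CPM in KO cells and 80.6 ± 6.28 CPM in EV cells with no overlap (SD, n = 4 each; log2 fold change -0.26 ± 0.06, adjusted p = 0.0051). Ppargc1b, Gabpb2 and Yy1 also fell, with log2 fold changes of -0.37, -0.21 and -0.13 (adjusted p = 0.0323, 0.0466 and 0.0409). Their calls were not followed through the alternative fits. The Ppargc1a call held in all 22, and the Pprc1 call was lost only without KO replicates 2 and 3 (edgeR adjusted p = 0.152). DESeq2 had 4 falls in this list.

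In the tricarboxylic acid cycle and pyruvate dehydrogenase list, which feeds the chain, 1 of 21 genes rose (4.76%) and 2 fell (9.52%). Of all genes, 12.6% rose and 13.4% fell. Both genes named here are kinases that switch off pyruvate dehydrogenase, and they moved in opposite directions. Pdk3 had 70.8 ± 2.89 CPM in KO cells and 93.2 ± 5.43 CPM in EV cells (log2 fold change -0.40 ± 0.05, edgeR adjusted p = 1.55e-05), and Pdk1 had 28.5 ± 1.02 CPM in KO cells and 23.2 ± 0.99 CPM in EV cells (log2 fold change 0.30 ± 0.07, adjusted p = 0.00228; SD, n = 4 each). None of the 13 tested coenzyme Q synthesis genes passed in edgeR's test or DESeq2, with 1 higher and 1 lower at an unadjusted p under 0.05.

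Markers of other cell types also differed between the groups. Summed over 16 hepatocyte markers, KO replicates 1 to 4 had 20.1, 31.4, 30.4 and 16 CPM, against 14.5, 12.5, 13.7 and 14.4 CPM in EV replicates 1 to 4. Without Alb the sums were 13.6, 18.4, 18.7 and 11.3 CPM in KO libraries, against 10.8, 10.8, 11.2 and 12.1 CPM in EV libraries, and the groups overlapped. Of the 7 tested, 4 rose and 1 fell, and Serpina1c had counts in 1 library only. The 12 cardiomyocyte markers summed to 113 to 130 CPM in KO libraries, against 146 to 160 CPM in EV libraries, nearly all of it Tnnt2, and Nppa was at 0 in every library. The 8 endothelial markers summed to 19.7 to 21.8 CPM in KO libraries, against 26.8 to 29.9 CPM in EV libraries, and the 8 blood and macrophage markers to 10.7 to 11.8 CPM in KO libraries, against 6.90 to 7.69 CPM in EV libraries. Neither of these pairs of ranges overlapped. Single markers within a sum could differ in direction. Of 3 endothelial markers tested, 1 rose and 2 fell, with log2 fold changes from -1.44 to 0.42. Of 3 blood and macrophage markers tested, 1 rose and none fell (0.12 to 0.73). Of 4 cardiomyocyte markers tested, none rose and 1 fell (-0.33 to 1.21). Over all genes tested, 12.6% rose and 13.4% fell. Without KO replicates 2 and 3, which held the most hepatocyte marker counts, 3 nuclear members rose and 1 fell, and 6 mt- genes rose, where 6.69% of all genes rose and 8.32% fell. The part these markers have in the results was not tested further.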

How the data were processed

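The deposited files hold whole-number raw counts for each gene and a table of FPKM values. Dividing the counts by length and library total gives the deposited FPKM for 100% of nonzero values (within 1e-06). Per the submitters' processing notes the build was mm10 and DESeq 1.6.3 was used. Not given in the sources used here are the aligner, counter, annotation release and strandedness. Extraction used Trizol, per the labels.

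Libraries were grouped by title. Counts were tested with edgeR 4.0.16 (R 4.3.3): filterByExpr (minimum count 10, minimum total 15), TMM, and the two-sided quasi-likelihood F test with p-values adjusted by Benjamini-Hochberg over 12801 genes at 0.05. Levels are TMM-normalized CPM, mean ± SD over 4 libraries, and the library depth sets the lowest level seen, as 3 counts equal 0.125 to 0.164 CPM. FPKM was used only to compare levels between genes and in limma alternatives. Over genes of 20 or more counts, replicate pairs had chi-square values of 4.01 to 13.2 per degree of freedom, above counting noise, and all were kept as separate samples. Counts were also simulated from these libraries, with 50 genes changed at each fold and 12716 genes tested. Of genes changed 1.25, 1.5, 2 and 4-fold, 60, 78, 96 and 96% passed, and 6 unchanged genes passed too. The simulation had far fewer changed genes than the data and no library deviations by gene length. These shares therefore need not hold for the short genes described here.

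The members and lists were chosen with earlier results of these data known, so lists have counts and medians and no test. Genes named were, in each complex, up to 4 with the smallest adjusted p past the threshold (or the smallest p), the most abundant by FPKM, all tissue isoforms and all mt- genes, and up to 2 called genes from each pathway list. The other called members, Ndufs1, Uqcrh, Atp5s, Atp5sl, Phf14, Ppargc1b, Gabpb2 and Yy1 were named after their values were seen. Shared 100-base windows were counted in GENCODE M21 transcripts (GRCm38).

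Alternatives were DESeq2 1.42.0, limma-voom (limma 3.58.1), RLE, upper-quartile and no scaling factors, TMM without mt- genes, no filter, a CPM of at least 1 in 4 libraries, limma on FPKM (log2 after adding 1 or 0.1) with a filter of 0.5 FPKM in 4 libraries or none, the replicate number as a block, and each library left out. Length offsets (20 bins) and the fit without KO replicates 2 and 3 were added after seeing the data. Protein sequences were not used here. Counts include 1 gene whose values are not reported here.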

Additional observations from a re-analysis of the deposited data

Results flagged for a closer look

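In 4 of 110 groups of 4 libraries checked, the value of 1 library stood far from the other 3, by a criterion that chance meets in about 1 in 20 groups. Ndufs6 had 21.4 CPM in KO replicate 4, low against 23.6 to 24.0 CPM in the other KO libraries. Timmdc1 had 26.2 CPM in KO replicate 2, the highest of the KO libraries. Ppargc1a had 10.1 CPM in EV replicate 1, low among EV libraries, and so had Pdk3 with 85.0 CPM in the same library. Both calls held without EV replicate 1, while that of Timmdc1 was lost without KO replicate 2 (edgeR adjusted p = 0.161).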

How the results depend on the processing

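Nuclear members that rose numbered 13 in the reported fit and 8 with length offsets, 25 without a filter, 5 with library totals alone, 3 without KO replicates 2 and 3, 1 with limma on log2(FPKM + 1) or log2(FPKM + 0.1) and 0 with no filter on FPKM, where 814 of all genes rose. Those that fell numbered 1, but 2 in each FPKM fit, 6 with length offsets and 4 with library totals alone. mt- genes that rose numbered 5, but 3 with DESeq2 and 1 with log2(FPKM + 0.1) or unfiltered FPKM. Among the genes named by rule, 7 lost their call with DESeq2: Ndufa13, Ndufb11, Cox7c, mt-Co1, mt-Nd5, Timmdc1 and Uqcc2. Leaving out 1 library gave 4 to 27 nuclear rises, 1 to 2 falls, 3 to 7 mt- rises and 2621 to 3359 calls over all genes, against 3324. Without KO replicates 2 and 3 there were 1974. The median of the nuclear members was 0.08 and ran from 0.02 to 0.12 over the alternatives, and that of the mt- members, 0.28, from 0.19 to 0.38. These moves were smaller than the SD over KO libraries of their median deviation, 0.066 and 0.15. For nuclear members that SD is nearly the median itself, so it cannot show that the median is stable. The median of complex III ran from 0.03 to 0.22 and that of complex IV from 0.02 to 0.25.

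Values near 0 changed sign. With length offsets the log2 fold change was -0.030 for Uqcr10 and -0.047 for mt-Atp6. For Atp5b it was 0.00028 with upper-quartile factors and 0.00059 without KO replicates 2 and 3, for Cox7a2 0.0094 without the same pair, and for Atp5g1 0.00073 with limma-voom. With 1 library left out it ran from -0.020 to 0.013 for Atp5b, -0.013 to 0.26 for mt-Atp6, -0.092 to 0.034 for Cox7a2 and -0.13 to 0.056 for Atp5g1. The causes were not tested.

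With the replicate number as a block, 25 nuclear genes rose and 1 fell, and 9 mt- genes rose. Of all 12801 genes, 3737 passed in either direction. The share of all genes that rose in this fit was not computed, so the member counts cannot be set against it. Same-numbered libraries had correlations of 0.124, -0.03, 0.06 and 0.09. KO replicates 1, 3 and 4 correlated best with their own number and KO replicate 2 with EV replicate 4 (0.06), so not every pair passed 0.1 and the numbers were not taken as pairs. Depth limits the muscle isoforms and mt-Nd4l, whose counts were few.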
